A study of Mus musculus with 56 samples.

Results

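The sarcomeric myosin heavy chains are the motor proteins of the thick filament. The members were the 7 genes Myh4, Myh1, Myh2, Myh7, Myh3, Myh8 and Myh7b, matched by symbol among the 57010 genes of the deposited count table. They were measured in mouse gastrocnemius, a mixed calf muscle made up mostly of fast fibres. The labels give 4 kinds of mice of 20 to 22 weeks: labelled HuR knockout females, control females, labelled HuR knockout males and control males, with 7 mice in each. HuR is an RNA-binding protein encoded by Elavl1. The knockouts carried a floxed Elavl1 gene. All mice, controls included, had a GFP-tagged L10A ribosomal protein switched on by Cre recombinase under the Mlc1f promoter, which is active in skeletal muscle fibres. Each mouse group had 7 libraries of ribosomal RNA, meaning RNA recovered with the tagged ribosomes, and 7 of total RNA from whole homogenate, 56 libraries in all. Libraries were QuantSeq libraries, which read the end of a transcript next to the poly(A) tail, so a count does not grow with transcript length.

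A muscle fibre is classed by the heavy chain it uses. Myh4 encodes the type IIb chain of the fastest fibres, Myh1 the type IIx chain, Myh2 the type IIa chain of fast oxidative fibres and Myh7 the type I chain of slow fibres. Myh3 and Myh8 encode the embryonic and neonatal chains, which are largely replaced after birth, and Myh7b encodes a slow tonic chain found in specialised fibres. The heavy chain sets how fast the filament slides, and adult fibres can exchange one chain for a neighbouring one in the series slow, IIa, IIx, IIb.

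Myh3, Myh2, Myh1, Myh4 and Myh8 lie in a cluster on chromosome 11 that spans 230362 bases in RefSeq for GRCm38.p6, whereas Myh7 lies on chromosome 14 and Myh7b on chromosome 2. The promoters of 4 clustered genes and of Myh7 are shown because these are the 5 members whose ribosomal level was tested. Each holds 250 bases before and 50 bases after the annotated start, read from RefSeq for GRCm38.p6 on the strand of the gene. The windows are chr11:67237562-67237861 for Myh4, chr11:67199852-67200151 for Myh1, chr11:67170777-67171076 for Myh2 and chr11:67276874-67277173 for Myh8, all on the plus strand, and chr14:54994500-54994799 for Myh7 on the minus strand. Capitals mark TATAAA, a MEF2 box, and a run of 14 bases found in all 4 clustered promoters.
Myh4: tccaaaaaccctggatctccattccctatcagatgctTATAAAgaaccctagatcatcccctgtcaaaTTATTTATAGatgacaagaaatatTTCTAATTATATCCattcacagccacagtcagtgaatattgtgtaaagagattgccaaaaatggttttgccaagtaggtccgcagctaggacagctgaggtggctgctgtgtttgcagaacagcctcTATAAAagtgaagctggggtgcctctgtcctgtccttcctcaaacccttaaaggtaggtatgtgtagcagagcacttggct
Myh1: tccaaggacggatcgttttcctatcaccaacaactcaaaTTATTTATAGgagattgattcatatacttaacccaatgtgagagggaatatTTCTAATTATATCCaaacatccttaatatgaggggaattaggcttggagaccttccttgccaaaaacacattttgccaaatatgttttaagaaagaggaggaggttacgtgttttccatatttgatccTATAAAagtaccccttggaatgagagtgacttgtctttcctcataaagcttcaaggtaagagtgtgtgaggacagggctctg
Myh2: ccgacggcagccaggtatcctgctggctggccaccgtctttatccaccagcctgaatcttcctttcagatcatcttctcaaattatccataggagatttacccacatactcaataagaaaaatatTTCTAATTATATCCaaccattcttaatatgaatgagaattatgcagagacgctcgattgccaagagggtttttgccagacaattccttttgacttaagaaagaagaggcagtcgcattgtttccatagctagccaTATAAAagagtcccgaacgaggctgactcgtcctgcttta
Myh8: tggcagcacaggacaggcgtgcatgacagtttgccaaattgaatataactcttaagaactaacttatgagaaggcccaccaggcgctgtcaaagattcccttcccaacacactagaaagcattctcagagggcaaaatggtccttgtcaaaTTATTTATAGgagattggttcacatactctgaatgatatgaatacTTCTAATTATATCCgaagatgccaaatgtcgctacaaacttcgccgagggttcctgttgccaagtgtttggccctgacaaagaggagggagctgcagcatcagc
Myh7: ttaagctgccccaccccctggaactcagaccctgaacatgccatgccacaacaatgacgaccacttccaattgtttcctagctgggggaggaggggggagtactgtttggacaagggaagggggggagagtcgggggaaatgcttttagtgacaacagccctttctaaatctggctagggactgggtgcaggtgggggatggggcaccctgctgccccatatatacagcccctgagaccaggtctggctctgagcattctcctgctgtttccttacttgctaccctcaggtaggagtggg

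The shared run, TTCTAATTATATCC, began at −158 in Myh4, −160 in Myh1, −125 in Myh2 and −54 in Myh8, counted with the annotated start as 0. Searched on both strands, it was in 4 of 32851 promoter windows, 0.0122%, and these were the 4 fast and neonatal genes. The run was picked because these windows share it, so its rarity is a description. A MEF2 box, a match for a family of muscle transcription factors and held by 3.19% of windows, was at −182 in Myh4, −211 in Myh1 and −99 in Myh8. In Myh4, Myh1 and Myh8 it overlaps one match to TATAAA read on the other strand. It was in neither the Myh2 window nor the Myh7 windows. TATAAA itself was in 13.6% of windows and lay just before the start of Myh4 and Myh1, at −31 and −32. In Myh2 it lay at 10, after the annotated start, so distances in Myh2 are not directly comparable with the others.

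Gene counts per library were 160313 to 3579221 in ribosomal libraries and 2427655 to 5848058 in total libraries. Levels are in CPM, gene counts scaled to library size with TMM factors. The muscle markers Acta1 and Ckm were abundant in every total library, at 4118 to 10120 CPM and 2706 to 6316 CPM. Elavl1 did not differ between labelled knockouts and controls by edgeR's quasi-likelihood test. Its log2 fold changes were 0.27 in female ribosomal RNA (adjusted p = 0.208), −0.01 in female total RNA (0.968), 0.29 in male ribosomal RNA (0.235) and −0.14 in male total RNA (0.473). A tag at the transcript's end may lie outside the deleted part, which the labels do not give, so this checks neither the deletion nor the labels. Among total libraries of labelled knockouts, female replicates 5, 6 and 12 and male replicates 1 and 12 stood apart in Myh7, Tnnt1 and Mss51, as described with Myh7 in total RNA. Nothing in the labels ties a replicate to a separate culture day or preparation, so p-values measure the spread between these mice as sampled.

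Myh4 made up nearly all of the family's counts in every group, and Myh7 was the least of the 4 adult limb chains. In ribosomal RNA the Myh4 share of the 7 genes' summed counts was 90.6% ± 1.41 in labelled knockout females and 92.2% ± 1.97 in control females (SD, n = 7 each). It was 92.1% ± 1.31 in labelled knockout males and 93.3% ± 1.28 in control males. In total RNA it was 85.8% ± 1.1 in labelled knockout females, 86.3% ± 2.98 in control females, 86.9% ± 2.17 in labelled knockout males and 87.1% ± 1.65 in control males. Myh2 followed in total RNA, with 7.24% to 7.66% as group means, then Myh1 with 5.0% to 5.72%. Control females 14 and 21 stood apart in total RNA, with Myh2 at 4.37% and 4.99% and Myh4 at 89.8% and 91.1%. In ribosomal RNA these neighbours did not separate beyond their spread: group means were 3.43% to 4.21% for Myh2 and 2.91% to 4.15% for Myh1. Myh7 followed with group means of 0.297% to 1.08% over both kinds of RNA. Myh8, Myh3 and Myh7b each stayed under 0.1% in every library. These shares compare end tags of different genes, whose 3′ ends may be captured with unequal efficiency.

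**Figure D1:**
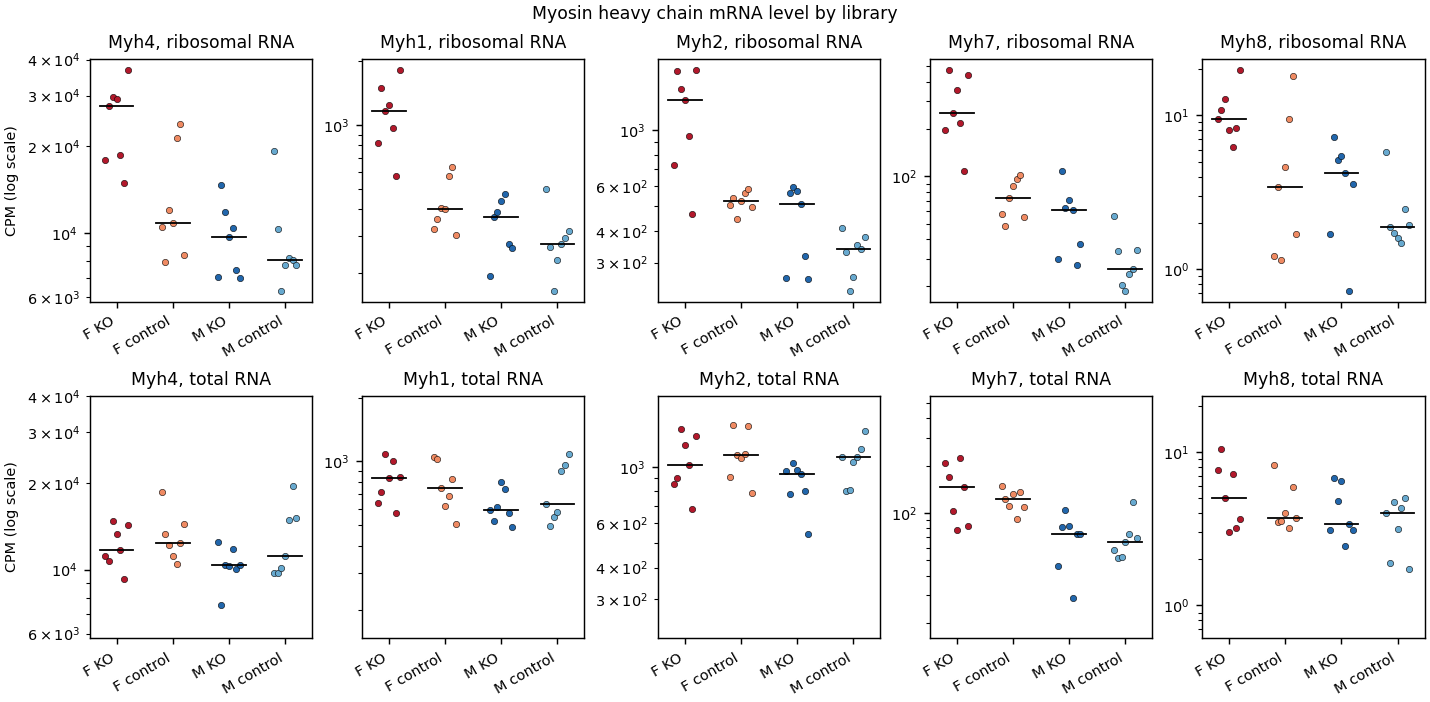
Level of Myh4, Myh1, Myh2, Myh7 and Myh8 in each library of ribosomal RNA (upper row) and total RNA (lower row), in CPM on log axes that both rows of a gene share. Points are libraries of female (F) and male (M) labelled knockouts (KO) and controls, and lines are group medians. The Myh7 points of ribosomal RNA do not overlap between labelled knockout and control females. The share of all genes for which this holds was not counted.

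**Figure D2:**
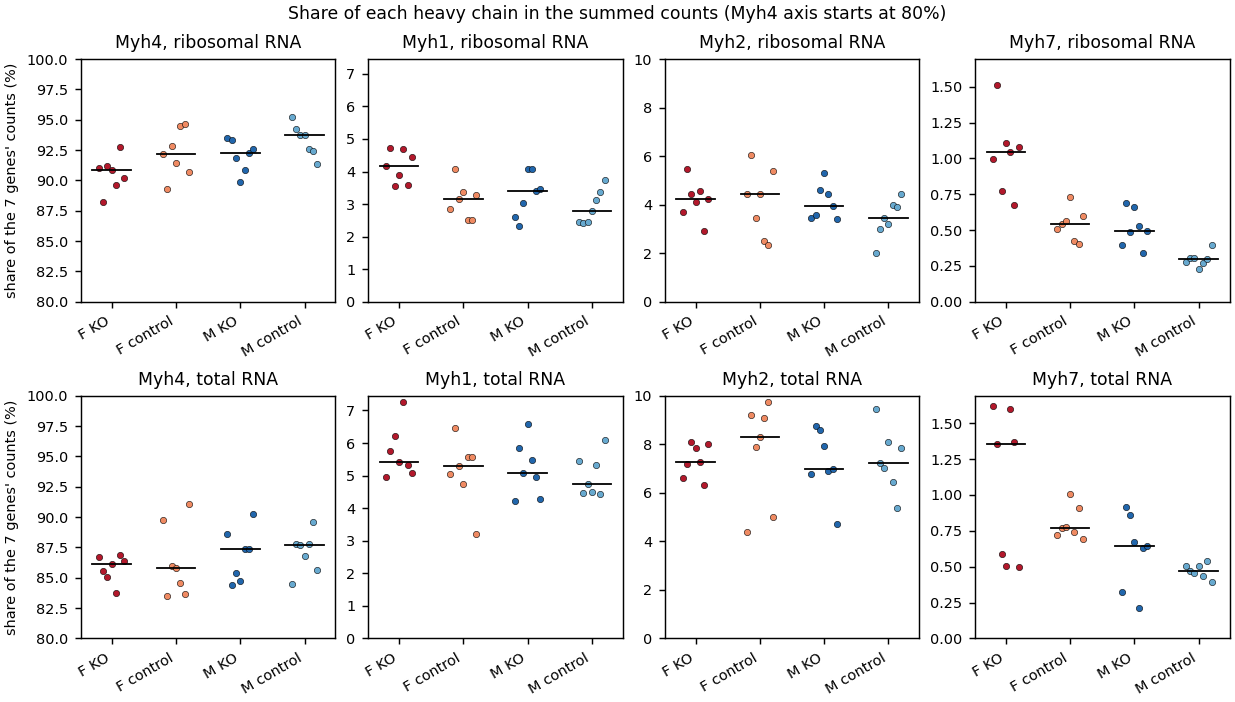
Share of the summed counts of the 7 genes taken by Myh4, Myh1, Myh2 and Myh7 in each library, in percent, with a point for each library and a line for each group median (F female, M male, KO labelled knockout). The Myh4 axis starts at 80%, and Myh7 shares of ribosomal RNA average 1.03% in labelled knockout females and 0.540% in control females.

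In female ribosomal RNA every member that could be tested was higher in labelled knockouts than in controls. All 5 tested members, Myh4, Myh1, Myh2, Myh7 and Myh8, passed an adjusted p of 0.05 in edgeR's quasi-likelihood test over 9098 genes, where 8.41% of genes were called higher and 16.8% were called in either direction. Their median log2 fold change was 1.45, beside −0.02 over all genes tested. Together the 7 genes took 1.60% to 3.09% of all counts in labelled knockout females, with a median of 2.43%, and 1.03% to 1.67% in control females, with a median of 1.28%. In bulk RNA, a change in the number of fibres of a type and a change in RNA per fibre cannot be told apart.

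Among the fast chains, Myh4 had a lowest, median and highest level of 14890, 27690 and 36800 CPM in labelled knockout females, against 7930, 10860 and 23830 CPM in control females. The groups overlapped, with 4 of 7 labelled knockouts above every control. Its log2 fold change was 0.88 (SE 0.27, adjusted p = 0.0193). The call was lost in 1 of 28 fits that each left out 1 library, without labelled knockout 12, at 0.76 (adjusted p = 0.053).

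Myh1, the IIx chain, had a lowest, median and highest level of 576, 1165 and 1811 CPM in labelled knockout females, against 302, 400 and 632 CPM in control females. Of the labelled knockouts 6 of 7 lay above every control, and the log2 fold change was 1.45 (SE 0.23, adjusted p = 3.41e-05). The RefSeq spans of Myh1 and of Myhas, a non-coding gene that lies between Myh1 and Myh4, overlap by 382 bases in GRCm38.p6, at the end of Myh1 where these tags fall. Whether counting used strand is not given in the sources used here, so reads of the overlap are uncertain. Myhas itself gave a log2 fold change of −0.05 in the same comparison.

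Myh2, the IIa chain, had a lowest, median and highest level of 466, 1319 and 1727 CPM in labelled knockout females, against 446, 526 and 585 CPM in control females. Again 6 of 7 labelled knockouts lay above every control, and the remaining one was among the control values. The log2 fold change was 1.19 (SE 0.22, adjusted p = 0.000263). The fast chains are close relatives, and reads that match more than 1 place were not counted, so how reads of near-identical ends were split among Myh4, Myh1, Myh2 and Myh8 is uncertain.

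Myh7, the slow chain, changed most among the tested members. Its lowest, median and highest levels were 108, 253 and 474 CPM in labelled knockout females, against 48.1, 72.6 and 102 CPM in control females. The groups did not overlap, and the share of all genes without overlap was not counted. The log2 fold change was 2.03 (SE 0.27, adjusted p = 3.63e-06), a fold of 4.08.

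The developmental chains were near the limit of counting. Myh8, the neonatal chain, had a lowest, median and highest level of 6.22, 9.42 and 19.8 CPM in labelled knockout females, against 1.14, 3.40 and 18.2 CPM in control females. Only 1 labelled knockout exceeded every control, and each value rested on 2 to 13 counts. Its log2 fold change was 1.59 (SE 0.42, adjusted p = 0.00794). Myh3, the embryonic chain, had 1 to 6 counts in labelled knockout females and 0 to 4 counts in control females. Myh7b, the slow tonic chain, had 0 to 1 counts in labelled knockout females and 0 to 2 counts in control females. Neither passed the filter on low counts in ribosomal RNA.

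Other transcripts also differed in this comparison. All 7 tested mitochondrially encoded mRNAs were called higher, and their summed level was 4924 to 23690 CPM in labelled knockout females and 1306 to 6168 CPM in control females. Fibroblast and matrix markers were called higher in 11 of 11, with a summed level of 576 to 1687 CPM in labelled knockout females and 327 to 480 CPM in control females. Endothelial markers were called higher in 6 of 7, with 66.4 to 302 CPM in labelled knockout females and 56.05 to 98.9 CPM in control females. Erythroid markers were called higher in 5 of 5, with 274 to 1069 CPM in labelled knockout females and 125 to 247 CPM in control females. Smooth muscle markers were called higher in 3 of 5, with 614 to 737 CPM in labelled knockout females and 473 to 574 CPM in control females. Schwann and nerve markers were higher in 2 of 3 tested, macrophage and leukocyte markers in 2 of 3, and adipocyte markers in 0 of 5. The smooth and non-muscle heavy chains moved too: Myh11 had a log2 fold change of 2.67, Myh9 of 2.67 and Myh10 of 1.22. Of 4 such genes 3 were called. In total RNA no member was called, where 8.55% of genes were in females and 14.2% in males. Fibroblast and matrix markers were higher there in 9 of 12 and erythroid markers in 5 of 5, in each sex. Endothelial markers were higher there in 0 of 8 in each sex. Mitochondrially encoded mRNAs were higher in 0 of 8 in females and 2 of 8 in males.

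Gene counts of these libraries were 491405 to 1207021 in labelled knockout females and 422756 to 3058801 in control females. Over the 28 ribosomal libraries, with group means subtracted, the log2 level of Myh4 and log2 gene counts had Pearson's r = −0.795 and Spearman's rho = −0.796 (permutation p = 1e-05 each, the smallest possible). Myh4 and log2 mitochondrially encoded mRNA had r = 0.801 and rho = 0.799, with the same permutation p. For Myh7, r was −0.739 with gene counts and 0.777 with mitochondrially encoded mRNA, again at that p. Without the 2 libraries farthest from the median, r was −0.836 and 0.773 for Myh4 and −0.724 and 0.701 for Myh7. Over all 28 libraries these 4 relations had an adjusted permutation p of 3e-05 over 12 such relations, and r without the 2 libraries was not tested. Each pair of values comes from the same library. CPM is divided by the library's gene counts and scaling factor, so both kinds of relation hold a shared term. The permutation p does not allow for that term. With the mitochondrially encoded mRNA level as a covariate, 1 of the 5 members remained called: Myh7, at 0.99 (adjusted p = 0.0409). Myh1 was then at 0.72 (0.0755), Myh2 at 0.56 (0.231), Myh8 at 0.52 (0.690) and Myh4 at 0.09 (0.913). With log2 gene counts as a covariate, an alternative chosen after seeing the data, 4 remained called, with Myh8 at 1.06 (0.0839). Beyond these fits, their part in the result was not tested.

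**Figure D3:**
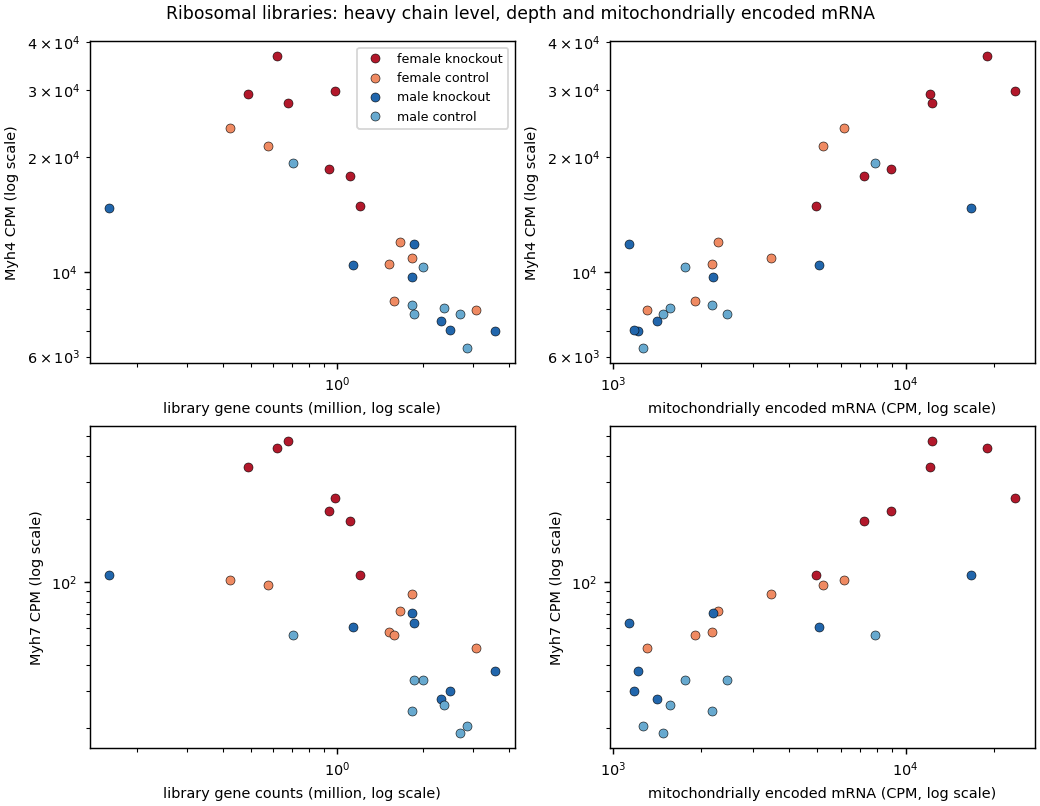
Level of Myh4 (upper row) and Myh7 (lower row) in the 28 ribosomal libraries, in CPM, against gene counts of the library (left) and summed mitochondrially encoded mRNA (right), all on log axes and coloured by group. Libraries with fewer counts and more mitochondrially encoded mRNA tend to have higher levels of both genes, with r = −0.795 and 0.801 for Myh4 once group means are subtracted.

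Relative to the family's own sum, the slow chain rose in both sexes. The Myh7 share of ribosomal heavy chain counts was 1.03% ± 0.268 in labelled knockout females and 0.540% ± 0.111 in control females (SD, n = 7 each). An exact two-sided permutation test gave p = 0.00117, and 0.0196 after Benjamini-Hochberg adjustment over 84 share tests. It was 0.514% ± 0.127 in labelled knockout males and 0.297% ± 0.0523 in control males, with the same exact permutation p and adjusted p. In each sex 6 of 7 labelled knockouts lay above every control. A share does not depend on library size or scaling. In controls the Myh7 share was higher in total RNA, at 0.803% in females and 0.472% in males. Shares were not fitted with mitochondrially encoded mRNA or other markers as a covariate, so the part of those transcripts was not tested. Without adjustment, the Myh7 share kept an exact permutation p under 0.05 in all 3 alternatives, in both sexes. The same held in every set with 1 library left out. The highest of these exact permutation p-values was 0.0238 in females and 0.00433 in males. In the main tests only an unadjusted p of at most 0.00117 passed after adjustment.

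The Myh1 share averaged 4.15% ± 0.488 in labelled knockout females and 3.11% ± 0.542 in control females (exact permutation p = 0.00408, adjusted 0.0571). It therefore did not pass after adjustment, and neither did the shares of Myh4 (exact permutation p = 0.0979) and Myh2 (0.84). In males the corresponding exact permutation p-values were 0.256 for Myh1, 0.0921 for Myh4 and 0.121 for Myh2.

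In male ribosomal RNA none of the 5 tested members was called between labelled knockouts and controls, where 8.99% of genes were. By edgeR 1 of them, Myh7, had an unadjusted p under 0.05, and DESeq2 and limma-voom each called 1. Myh7 had a lowest, median and highest level of 27.4, 60.8 and 108 CPM in labelled knockout males, against 18.8, 25.7 and 55.9 CPM in control males. The groups overlapped, with 4 of 7 labelled knockouts above every control. Its log2 fold change was 0.83 (SE 0.29, adjusted p = 0.0681). Myh7 passed in 7 of 9 alternative fits and in 4 of 28 fits that left out 1 library: labelled knockout males 1 (log2 fold change 0.94) and 13 (0.96), labelled knockout female 10 (0.83) and control male 20 (0.93).

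The male fast chains were closer together. Myh2 had a lowest, median and highest level of 257, 511 and 594 CPM in labelled knockout males, against 232, 340 and 410 CPM in control males, with a log2 fold change of 0.40 (adjusted p = 0.279). Myh1 had 195, 368 and 471 CPM in labelled knockout males, against 166, 276 and 497 CPM in control males, with 0.24 (0.580). Myh4 had 7006, 9697 and 14690 CPM in labelled knockout males, against 6306, 8047 and 19270 CPM in control males, with 0.01 (0.991). In Myh1 and Myh4 no labelled knockout exceeded every control, and in Myh2 4 did. Myh8 had a log2 fold change of 0.71 (0.338) on 1 to 16 counts. Mitochondrially encoded mRNAs were called in 0 of 7 here, and their summed level was 1135 to 16730 CPM in labelled knockout males and 1266 to 7852 CPM in control males. Erythroid markers were higher in 5 of 5.

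The knockout difference itself was compared between sexes. Myh1 was the 1 member of 5 called, where 3.42% of genes were in either direction and 1.53% were lower, with a male minus female difference in log2 fold change of −1.21 (SE 0.32, adjusted p = 0.0289). Of 28 fits that left out 1 library 23 kept this call. It was lost without labelled knockout female 12 (−1.06), labelled knockout males 13 (−1.16) or 14 (−1.15), or control females 14 (−1.15) or 15 (−1.17). With mitochondrially encoded mRNA as a covariate the difference was −0.48 (adjusted p = 0.637). Myh7 had a difference of −1.20 (0.0788), Myh4 of −0.87 (0.177), Myh2 of −0.79 (0.139) and Myh8 of −0.88 (0.426), none of which passed. The different results for Myh7 in the sexes are thus not shown to differ.

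**Figure D4:**
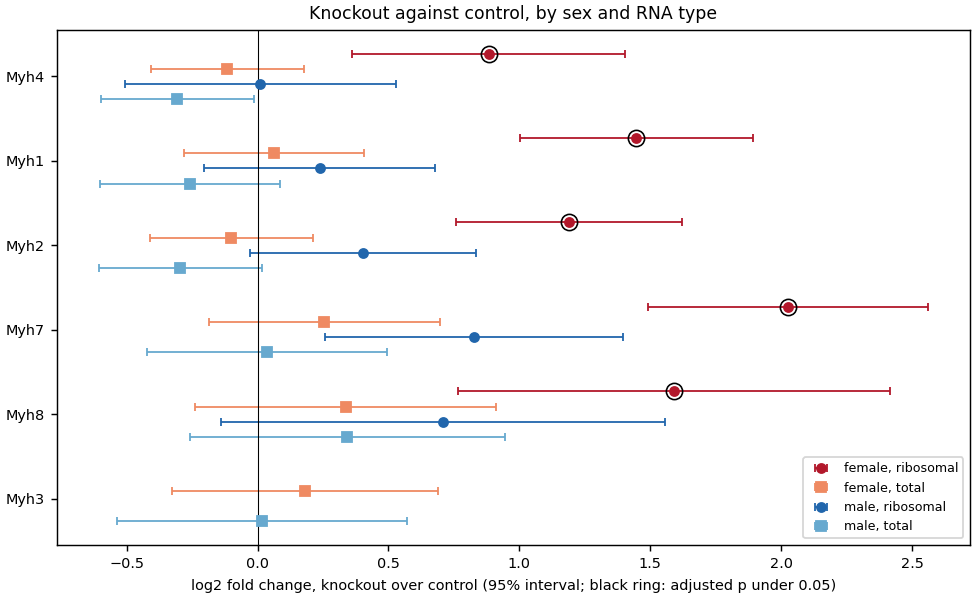
Log2 fold changes of the tested members, labelled knockout over control, with 95% intervals, in female and male ribosomal and total RNA. Black rings mark an adjusted p under 0.05. All 5 tested members lie above 0 in female ribosomal RNA, and the intervals of the 6 members tested in female total RNA include 0.

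In total RNA no member was called in either sex. By edgeR 0 of 6 tested members passed in females, where 8.55% of genes did, and 0 of 6 in males, where 14.2% did. The members' median log2 fold change was 0.12 in females, beside 0.01 over all genes, and −0.12 in males, beside 0.0015. At an unadjusted p under 0.05 no member passed in females and 1, Myh4, did in males. DESeq2 and limma-voom called 0 members in both sexes.

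Myh4 had a lowest, median and highest level of 9300, 11660 and 14810 CPM in labelled knockout females, against 10470, 12410 and 18660 CPM in control females, with a log2 fold change of −0.12 (adjusted p = 0.691). In labelled knockout males it was at 7512, 10340 and 12500 CPM, against 9750, 11130 and 19530 CPM in control males, with −0.31 (0.163). In both sexes the groups overlapped and 1 labelled knockout lay below every control. Myh1 had a log2 fold change of 0.06 (0.871) in females and −0.26 (0.333) in males, and Myh2 had −0.10 (0.755) in females and −0.30 (0.208) in males. The 95% interval for Myh2 in females ran from −0.41 to 0.21, so a rise of the size seen in female ribosomal RNA lies outside it. Myh8 had 0.34 (0.528) in females and 0.34 (0.471) in males, and Myh3 had 0.18 (0.728) in females and 0.02 (0.980) in males.

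Myh7 in total RNA split the labelled knockouts. Its share was 1.62%, 1.35%, 1.60% and 1.37% in labelled knockout females 1, 2, 9 and 10, all above the control females' 0.693% to 1.01%. It was 0.590%, 0.505% and 0.495% in labelled knockout females 5, 6 and 12, all below every control. In labelled knockout males 2, 6, 10, 13 and 14 it was 0.918%, 0.858%, 0.675%, 0.634% and 0.642%, all above the control males' 0.393% to 0.543%. In labelled knockout males 1 and 12 it was 0.325% and 0.214%, both below every control. No labelled knockout of either sex lay within the control range. The means were 1.08% ± 0.522 in labelled knockout females and 0.803% ± 0.115 in control females (exact permutation p = 0.199). They were 0.609% ± 0.258 in labelled knockout males and 0.472% ± 0.0509 in control males (exact permutation p = 0.196).

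The same 5 libraries stood apart in other transcripts. Tnnt1, the slow fibre troponin T, was at 326, 251 and 354 CPM in labelled knockout females 5, 6 and 12, against 510 to 693 CPM in the other labelled knockouts and 330 to 450 CPM in control females. It was at 162 and 110 CPM in labelled knockout males 1 and 12, against 294 to 398 CPM in the others and 169 to 326 CPM in control males. Mss51, which encodes a muscle mitochondrial protein, was at 171, 134 and 132 CPM in those females. The other labelled knockout females were at 310 to 519 CPM and control females at 51.0 to 140 CPM. In labelled knockout males 1 and 12 Mss51 was at 215 CPM each, against 396 to 524 CPM in the other labelled knockout males. Control males were at 156 to 331 CPM. By edgeR, Mss51 was called higher in labelled knockouts of both sexes. Log2 fold changes were 1.75 in female and 0.81 in male total RNA, and 2.1 in female and 1.3 in male ribosomal RNA. The 5 libraries were also the highest of their sex in mitochondrially encoded mRNA. It was at 50460, 46190 and 60400 CPM in labelled knockout females 5, 6 and 12, against 23770 to 45100 CPM in the other labelled knockouts and 32740 to 38690 CPM in control females. It was at 58630 and 58010 CPM in labelled knockout males 1 and 12, against 27720 to 42800 CPM in the others and 31700 to 36710 CPM in control males. Its part in the Myh7 split was not tested.

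The ribosomal libraries with the same numbers did not stand apart in their Myh7 share. The shares there were 0.775%, 1.10% and 1.08% for labelled knockout females 5, 6 and 12, within 0.672% to 1.51% over the group. They were 0.399% and 0.529% for males 1 and 12, within 0.340% to 0.687%. In other measures some did: ribosomal mitochondrially encoded mRNA was at 23690 and 18950 CPM in labelled knockout females 5 and 12, above the 4924 to 12270 CPM of the other 5, female 6 included. Female 12 also had the highest level of its group in Myh4, Myh1, Myh2, Myh3 and Myh8. The Myh7 log2 fold change in total RNA was 0.62 in females in a fit without labelled knockout females 5, 6 and 12. In a separate fit without labelled knockout males 1 and 12 it was 0.27 in males. With these libraries it was 0.26 in females and 0.04 in males. Over all 28 mice, with group means subtracted, the Myh7 shares in the 2 kinds of RNA had Pearson's r = 0.106 (permutation p = 0.661) and Spearman's rho = 0.0257 (0.906), and r = 0.199 without the 2 farthest mice. The fold changes of the separate fits are given without a test, because Myh7 itself helped to pick the libraries left out.

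**Figure D5:**
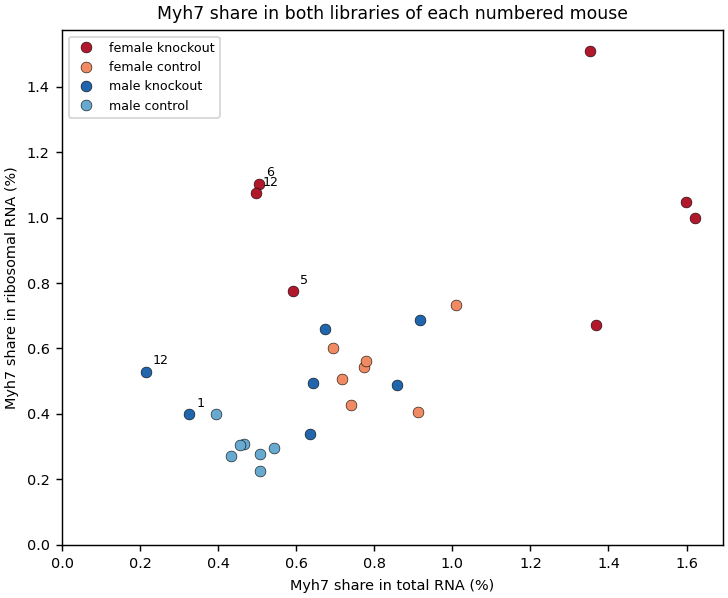
Myh7 share of heavy chain counts in ribosomal RNA (vertical axis, percent) against that in total RNA (horizontal axis, percent), with 1 point for each numbered mouse, coloured by group. The 5 numbered points are the labelled knockouts whose total RNA share, 0.214% to 0.590%, lies below every control of their sex.

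Myh7 was lower in males than in females in all 4 comparisons of the sexes. In controls its ribosomal level was 18.8, 25.7 and 55.9 CPM in males and 48.1, 72.6 and 102 CPM in females as lowest, median and highest. The groups overlapped slightly. The log2 fold change was −1.33 (SE 0.29, adjusted p = 0.00251 by edgeR). Myh7 was the 1 member of 5 called, where 7.65% of genes were in either direction and 3.4% were lower. Myh2 was at −0.67 (adjusted p = 0.0542 by edgeR) and not called. It passed in 5 of 8 alternative fits and in 7 of 28 fits that left out 1 library. Every control male lay below every control female in Myh2, and the share of all genes without overlap was not counted. In total RNA of controls Myh7 was the 1 member of 6 called, where 8.66% were in either direction and 3.82% were lower, at −0.82 (SE 0.23, adjusted p = 0.0220). Of 28 fits that left out 1 library 26 kept it, and it was lost without control male 21 (−0.76, 0.0527) or 22 (−0.76, 0.0539). Its lowest, median and highest levels there were 51.9, 65.1 and 118 CPM in control males, against 91.7, 123 and 149 CPM in control females.

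As a share, Myh7 was 0.472% ± 0.0509 in total RNA of control males and 0.803% ± 0.115 in control females, with no overlap. The exact permutation p was 0.000583, the smallest that 7 against 7 allows, and 0.0196 after adjustment. In ribosomal RNA the shares were 0.297% ± 0.0523 in control males and 0.540% ± 0.111 in control females, with the same exact permutation p. Slow fibre genes, from a list chosen with earlier results of these data known, were lower in males too. This held for 7 of 13 in total RNA of controls and for 4 of 13 in ribosomal RNA, where Ankrd2 was higher. Named examples in total RNA were Tnni1 at −1.04, Tpm3 at −0.78, Myl2 at −0.73 and Myl3 at −0.52 on the log2 scale.

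Among labelled knockouts the male level was lower in all 5 tested members in ribosomal RNA, where 33.7% of genes were called and 17.2% were lower. Log2 fold changes, male over female, were −2.53 for Myh7, −1.76 for Myh1, −1.63 for Myh8, −1.46 for Myh2 and −1.36 for Myh4. Myh4 and Myh1 did not overlap between the sexes, and the share of all genes without overlap was not counted. Other transcripts were lower in males with them. Fibroblast and matrix markers were lower in 10 of 11, with a summed level of 346 to 1089 CPM in labelled knockout males and 576 to 1687 CPM in labelled knockout females. The smooth and non-muscle heavy chains were lower in 4 of 4, endothelial markers in 4 of 7, and erythroid and smooth muscle markers in 3 of 5 each. Of the smooth muscle markers 1 was called higher in males. Mitochondrially encoded mRNAs were lower in 7 of 7, at a sum of 1135 to 16730 CPM in labelled knockout males and 4924 to 23690 CPM in labelled knockout females. With that sum as a covariate 2 members stayed called, Myh7 and Myh1; the part of the other markers was not tested. In total RNA of labelled knockouts Myh7 was the 1 member of 6 called, where 2.89% of genes were and 1.01% were lower, at −1.04 (adjusted p = 0.00793).

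Ribosomal and total RNA of each mouse group were compared next. In labelled knockout females 5 of 6 tested members were higher in ribosomal RNA, where 64.8% of genes were called and 26.6% were higher: Myh4 at 1.53, Myh7 at 1.46, Myh8 at 1.33, Myh1 at 0.99 and Myh2 at 0.66 on the log2 scale. In control females 3 of 6 were called, where 68.1% of genes were, with Myh4 higher at 0.59 and Myh2 lower at −0.55 and Myh3 lower at −1.60. With RLE size factors Myh4 was at 0.42 in control females (adjusted p = 0.0918) and no longer called, nor with DESeq2, as also without mouse 18 (0.39) or 19 (0.38). In labelled knockout males 2 of 6 were called, where 68.3% were, Myh3 at −1.56 and Myh2 at −0.45. Myh1 was at −0.32 in labelled knockout males (adjusted p = 0.157) and not called, but passed in all 4 alternative fits: at −0.36 with the mouse as a block (0.0424), −0.38 with no filter (0.0237), −0.54 with DESeq2 (0.0214) and −0.55 with RLE size factors (0.0206). In control females it passed in 3 of 4, all but the block. The Myh2 call was lost without mouse 1 (−0.36), 13 (−0.40) or 14 (−0.44). In control males 4 of 6 were lower, where 70.7% were called and 38.6% were lower: Myh2 at −1.11, Myh3 at −0.95, Myh1 at −0.79 and Myh7 at −0.74. Those of Myh3 and Myh7 were lost without mouse 26 (−0.63 and −0.55), and that of Myh3 also without mouse 25 (−0.82). The median over all genes was −0.25, −0.12, −0.06 and −0.09 in these groups with TMM scaling and −0.39, −0.35, −0.31 and −0.32 with RLE size factors.

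The composition shifted the same way in all 4 mouse groups. The Myh4 share was higher in ribosomal than in total RNA of the same numbered mouse in 7 of 7 labelled knockout females, 6 of 7 control females, 7 of 7 labelled knockout males and 7 of 7 control males. The Myh1 share was lower in the same numbers of mice, and the Myh2 share in 7, 5, 7 and 7 of 7. With 7 pairs an exact sign-flip permutation test cannot go below p = 0.0156. After adjustment over the 84 share tests this was 0.0625, so none of these shifts passed. The 2 kinds of RNA came from different preparations, so preparation and ribosome association cannot be told apart.

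Whether the ribosomal to total difference depended on genotype was tested in 1 model. In females 3 of 6 members were called, where 3.47% of genes were in either direction and 1.85% were higher: Myh7 at 1.69 (SE 0.36, adjusted p = 0.00408), Myh1 at 1.32 (SE 0.29, 0.00568) and Myh2 at 1.21 (SE 0.27, 0.00732). Myh4 had 0.94 (0.0597) and did not pass, though it did in 2 of 4 alternative fits, with DESeq2 (0.98, 0.0496) and with no filter (0.97, 0.00235), and without control female 18 (1.11) or 19 (1.12) or control male 20 (0.92). Other transcripts moved the same way in females. The smooth and non-muscle heavy chains were higher in 4 of 4, with Myh11 at 2.77 and Myh9 at 2.33. Mitochondrially encoded mRNAs were higher in 5 of 8, with a median of 1.73, endothelial markers in 5 of 8, Schwann and nerve markers in 3 of 6, smooth muscle markers in 2 of 6 and fibroblast and matrix markers in 3 of 12. Slow and fast fibre genes were called in 0 of 13 each. The part of these transcripts in the members' differences was not tested. In males 0 of 6 were called by edgeR, where 0.128% of genes were, with 2 members at an unadjusted p under 0.05 and 0 called by DESeq2.

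Genes of the fibre type programme were read from lists chosen with earlier results of these data known. Over all genes in ribosomal RNA, 16.8% were called in females, with 8.41% of all genes higher, and 8.99% were called in males, and list counts near these shares say nothing particular of a list. In female ribosomal RNA 9 of 13 slow fibre sarcomere and calcium genes were higher in labelled knockouts and 0 lower, with a median log2 fold change of 0.60. Tnnc1, slow troponin C, was at 1.01, Tpm3, slow tropomyosin, at 0.87, Myl3, a slow light chain, at 0.63 and Atp2a2, the slow calcium pump, at 0.60. Of 13 fast fibre genes 1 was higher, Casq1, the fast calsequestrin, at 0.73, with a list median of 0.25. Of 12 thick filament and myosin-binding genes 2 were higher, the giant elastic protein Ttn at 1.22 and the slow myosin-binding Mybpc1 at 0.80. Of 11 tested myosin folding and turnover genes 1 was lower, the ubiquitin ligase Fbxo32 at −0.90.

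In male ribosomal RNA 3 of 13 slow fibre genes were higher and 2 lower. Tpm3 was at 0.56 and Tnnc1 at 0.52, while the stretch-responsive Ankrd2 was at −1.12 and Csrp3 at −1.08. No fast fibre gene of 13 was called. In total RNA, Tpm3 was the 1 slow gene called in females, at 0.44, and in males Tpm3 was at 0.68, Csrp3 at −1.12 and Ankrd2 at −1.26. Among 25 fibre type regulators in ribosomal RNA, 2 were higher and 4 lower in females and 3 higher and 3 lower in males. Mafa, a large Maf factor tied to IIb fibres in mice, was at 0.71 in females and 0.94 in males. Esrrg, an oxidative fibre receptor, was at −1.67 in females, and Maf was at −0.66 in females.

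The members also differed in which genes they varied with. Among 10153 genes screened over the 28 total libraries, those most like Myh7 in log2 level, with group means subtracted, were Tnnc1 (r = 0.912), Tnnt1 (0.911) and Atp2a2 (0.901). Among those most like Myh4 were Cacna2d1 (0.914) and Pde4dip (0.900), most like Myh1 were Atxn2 (0.877), Msi2 (0.866) and Akap6 (0.857), and most like Myh2 were Slc16a1 (0.876), Got1 (0.811) and Sdha (0.805). The 28 points of a pair share library depth and scaling. In the ribosomal libraries the same pairs ranged from r = −0.524 for Msi2 and Myh1 to 0.650 for Tnnt1 and Myh7. Among the members, on the same scale, r over total libraries was 0.689 for Myh4 and Myh1 and 0.715 for Myh1 and Myh2, and Myh7 lay between −0.164 and 0.0958 with the others. In ribosomal libraries all 6 pairs of these 4 genes lay between 0.683 and 0.868.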

How the data were processed

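The authors deposited 1 table of raw counts per gene for all 56 libraries, used here as deposited. Per the labels, libraries were Lexogen QuantSeq from 500 ng of RNA with 50 bp reads. Per the submitters' processing notes, UMI-tools, STAR, HTSeq and GRCm39 were used, with DESeq2 1.40.1 in R 4.3.0. Symbols were matched to 52029 of 57010 genes, holding 97.56% of counts; 5 summary lines were left out, and 0 columns were unused. Ribosomal, total and joint fits used edgeR 4.0.16 (glmQLFit, TMM, filterByExpr) in R 4.3.3 over all groups of that RNA type, with Benjamini-Hochberg adjustment over all genes tested and a threshold of 0.05; DESeq2 1.42.0 and limma 3.58.1 were alternatives. Scripts were tested on simulated data. Shares were compared by exact permutation. Members, lists and tests were chosen with earlier results of these data known. Named genes outside the members were up to 4 of each list with the lowest p, and the 3 most correlated with each adult limb member among genes of at least 5 mean CPM; Tnnt1 and Mss51 were named after their values were seen. Replicate numbers were taken as the same mouse in both RNA types, since the labels give 28 mice for 28 libraries of each; mean correlations of deviations were 0.169 in female knockouts, 0.0793 in female controls, 0.0764 in male knockouts and −0.172 in male controls. Promoters came from RefSeq for GRCm38.p6. Intervals of fold changes come from edgeR standard errors and include the spread between mice. Some genes that the rule for named genes selects are not reported here.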

Additional observations from a re-analysis of the deposited data

Results flagged for a closer look

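In each group of 7 libraries the highest and lowest value were compared with the nearest other value, and 6 of 88 group tests passed Dixon's 95% limit; chance gives about 1 in 20. Male control replicate 20 was the highest ribosomal library of its group in 5 members and passed the limit in 3 of them. Myh4 was at 19270 CPM there against 6306 to 10320 CPM in the other 6, Myh7 at 55.9 CPM against 18.8 to 33.9 CPM, and Myh8 at 5.78 CPM against 1.47 to 2.46 CPM. Male control replicate 26 was highest in total RNA, with Myh7 at 118 CPM against 51.9 to 73.0 CPM and Myh7b at 2.73 CPM against 0.183 to 1.21 CPM. Myh3 was at 13.2 CPM in ribosomal RNA of labelled knockout female 12, against 0.829 to 5.44 CPM in the others. The flagged Myh8, Myh7b and Myh3 values rest on few counts, near the limit of counting.

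Some differences between groups were themselves past the test. The knockout log2 fold change of Myh1 in ribosomal RNA was lower in males than in females by −1.21. In females the difference between ribosomal and total RNA was larger in labelled knockouts than in controls by 1.32 for Myh1, 1.21 for Myh2 and 1.69 for Myh7 on the log2 scale.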

How the results depend on the processing

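The count of members called between labelled knockout and control females in ribosomal RNA was 5, and 1 with the mitochondrially encoded mRNA level as a covariate. With no filter Myh3 was called as well, at 1.86 (adjusted p = 0.0387 by edgeR), and with the depth covariate Myh8 no longer was. Between labelled knockout and control males the count was 0, and 1 under DESeq2, limma-voom, either covariate, no filter, only the 14 libraries compared, and without the shallowest libraries. Without 1 replicate that count was 0 to 1. Male against female controls in ribosomal RNA gave 1, and 2 under DESeq2, the mitochondrial covariate and without the shallowest libraries, 3 under limma-voom and no filter, and 1 to 4 without 1 replicate; total RNA gave 0 to 1 without 1 replicate. Male against female labelled knockouts gave 5, and 2 with the mitochondrial covariate. The sex difference in the knockout effect gave 1, and 3 under limma-voom, 0 with the mitochondrial covariate, 4 with no filter and 0 to 3 without 1 replicate. In labelled knockout males Myh1 passed in ribosomal against total RNA under all 4 alternatives, so that each gave 3 members, and Myh4 passed in the female genotype difference under 2 of 4. Ribosomal against total RNA gave 5 with no filter in control females, against 3; without 1 replicate it gave 2 to 4 in control males and 1 to 2 in labelled knockout males. The causes were not tested.

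Some values changed sign, none of them called in the comparison as reported or under that alternative. In male ribosomal RNA Myh4 was at −0.10 with the depth covariate, −0.0069 with the mitochondrial covariate and −0.011 with no filter. The Myh8 sex difference in the knockout effect, −0.88, was 0.23 with the mitochondrial covariate. Without total libraries of over 19% of reads outside genes, Myh1 was at 0.140, Myh3 at −0.0666 and Myh4 at 0.0338 in males. Without the total libraries of labelled knockout females 5, 6 and 12, Myh1 in females was at −0.0863. Share differences turned to −0.847 for Myh2 in female ribosomal RNA without the shallowest libraries. They turned to 0.352 and 0.177 for Myh4 in female and male total RNA without libraries rich in reads outside genes. For Myh2 in male total RNA the share difference was 0.0312 without the 5 total libraries that stood apart. Without 1 replicate, log2 fold changes spanned −0.0199 to 0.153 for Myh1 in female total RNA, −0.11 to 0.30 for Myh3 and −0.0741 to 0.199 for Myh7 in male total RNA, and −0.12 to 0.27 for Myh4 in male ribosomal RNA. Share differences spanned −0.0254 to 0.387 for Myh1, −0.45 to 0.296 for Myh2 and −0.803 to 0.184 for Myh4 in male total RNA, −0.862 to 0.0316 for Myh2 and −1.04 to 0.226 for Myh4 in female total RNA, and −0.172 to 0.451 for Myh2 in female ribosomal RNA.

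With the mouse as a replicate block, the female genotype differences in ribosomal against total RNA were 1.26 for Myh1, 1.10 for Myh2 and 1.67 for Myh7, all still called; the block changed 1 other call, that of Myh1 in labelled knockout males. No paired analysis was possible within 1 RNA type because knockouts and controls are different mice. Ribosomal libraries down to 160313 counts leave Myh3, Myh8 and Myh7b on single counts.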

Other observations

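Genes that mark denervated or regenerating muscle, where the embryonic and neonatal chains return, moved in both directions in female ribosomal RNA. Of 8 tested, 2 were higher and 4 lower in labelled knockouts at an adjusted p of 0.05 in edgeR's quasi-likelihood test, where 16.8% of all genes were called and 8.41% were higher. Ncam1, an adhesion molecule of denervated fibres, was at 1.32 on the log2 scale, while Actc1, the cardiac actin of immature fibres, was at −1.49, Gadd45a at −1.09 and Myod1 at −1.05. The list's summed level was 327 to 483 CPM in labelled knockout females and 547 to 976 CPM in control females. These ranges did not overlap, but the share of all genes or lists without overlap was not counted. Such a sum follows the most abundant genes of the list. In female total RNA Actc1 was at −0.86 and Myod1 at −0.48, and in male total RNA Actc1 was at −0.80. In controls Actc1 was lower in males than in females, at −1.60 in ribosomal RNA and −1.73 in total RNA.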
